A study of Mus musculus with 20 samples.

Results

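The genes described are 7 secreted antagonists of bone morphogenetic protein (BMP) and activin signalling, Grem1, Nog, Chrd, Chrdl1, Chrdl2, Fst and Fstl1. They were taken by symbol from tables of 43280 genes, and their promoters were looked up in 4 lists of accessible regions. RNA-seq was measured in GFP+ mesenchymal cells sorted from stomach and intestine of mouse embryos at E13.5, with 2 libraries for each organ and genotype. Control embryos carried Bapx1-cre;Rosa26mTmG, and Eed KO embryos carried Eed fl/fl;Bapx1-cre;Rosa26mTmG, so that cells of both genotypes were marked by the same Cre. The strain was labelled C57BL/6, although the study's methods describe mixed strain backgrounds. Bapx1 is another name of Nkx3-2, a transcription factor of the gut mesenchyme, and GFP marks each cell in which its promoter has driven Cre, together with that cell's descendants. The adult set held 2 WT and 2 EED-KO libraries of intestinal mesenchyme, which the study's methods describe as GFP+ cells of small intestine in which a tamoxifen-inducible Cre under the Pdgfrb promoter marked the cells in both genotypes. ATAC-seq peaks were called once for each of the 4 embryonic conditions on pooled replicates, so the peak values have no replicate error. Eed encodes a core subunit of Polycomb repressive complex 2, which deposits the repressive histone mark H3K27me3, and the study asked how its loss in the mesenchyme changes the signals sent to the epithelium.

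BMP ligands bind paired type I and type II serine/threonine kinase receptors, which phosphorylate SMAD proteins that carry the signal to the nucleus. Secreted antagonists hold the ligand away from its receptors, and in the gut they are made largely by mesenchymal cells, close to the muscle layer and, in the adult, around the crypt base. Low BMP activity there is known to favour stem and progenitor cells, whereas BMP signalling along the villus favours differentiation. In GENCODE vM4 on mm10 the genes, with their strand, are Grem1 at chr2:113746164-113758646 (-), Nog at chr11:89300638-89302332 (-), Chrd at chr16:20733127-20742384 (+), Chrdl1 at chrX:143285674-143394262 (-), Chrdl2 at chr7:100006404-100034728 (+), Fst at chr13:114452262-114458730 (-) and Fstl1 at chr16:37776873-37836514 (+).

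Embryonic libraries held 30236159 to 39606157 counts assigned to genes and adult libraries 11404712 to 15903642, so a floor of 3 counts corresponds to at most 0.0992 and 0.263 CPM, the read count scaled to a common library size. Eed was 38.1 and 40.1 CPM in control intestine, 10.7 and 8.59 CPM in Eed KO intestine, 40.1 and 41.5 CPM in control stomach, and 11.5 and 7.40 CPM in Eed KO stomach. It was lower in both KO organs, with log2 fold changes of -2.02 and -2.11 (edgeR adjusted p = 0.0046 and 0.0017). In the adult it was 29.7 and 33.4 CPM in control and 25.7 and 25.0 CPM in KO. The difference was not called (log2 fold change -0.32, edgeR adjusted p = 0.32). These whole-gene counts alone therefore do not show the deletion in the adult KO libraries, whose genotype is taken from their labels. Those libraries also held more leukocyte marker RNA, and its part in the Eed value was not tested. The study separately reports the deletion efficiency of Eed in isolated pericryptal cells. Of 7 mesenchymal markers, 6 were at 1 CPM or more in every adult library. The remaining marker, Nkx3-2, was at or below 0.0773 CPM in all 4 adult libraries and between 13.46 and 36.9 CPM in the embryonic ones. The 2 libraries named replicate 1 of the Eed KO organs held 3 and 2 counts of the X-inactivation transcript Xist, whereas the other 6 embryonic libraries held 36.6 to 126 CPM. In bulk RNA, fewer cells of a type and less RNA per cell cannot be told apart.

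A gene was called when its Benjamini-Hochberg adjusted p in edgeR's quasi-likelihood test was below 0.05 and its log2 fold change exceeded 1 in either direction, and every value after ± is the standard deviation of 2 libraries unless it is named a standard error (SE). Between control organs, 1 of the 7 antagonists was lower in intestine and none was higher, beside 3.39% of all tested genes called lower and 1.68% called higher. After Eed loss, 2 of 7 were lower in stomach (background 0.808%) and none was higher (4.84%). In intestine none of the 7 was called higher (2.38%) or lower (0.228%). Between the Eed KO organs, 1 of 7 was higher in intestine (1.46%) and 1 was lower (2.94%). In the adult, 5 of the 7 could be tested, 1 was lower in KO (7.23%) and none was higher (12.3%). With 7 members, a single gene makes up a larger share than each of these backgrounds, so the results are those of single genes: Chrdl1, Fst, Nog and Fstl1. Fold changes are relative to the typical gene: scaling to spike-in RNA moved the median gene by 2.39 (log2) in Eed KO stomach, 1.85 in Eed KO intestine, 0.30 and -0.24 between control and Eed KO organs and -0.42 in the adult, and with that shift kept in, 5 of 7 members were called higher in Eed KO stomach and 6 of 7 in Eed KO intestine. The libraries of the 2 groups did not overlap for 4 of 7 members between control organs (51.2% of all tested genes), 6 of 7 after Eed loss in stomach (55%), 4 of 7 in intestine (38.3%), 4 of 7 between Eed KO organs (44.5%) and 3 of 5 in the adult (65.3%). The median log2 fold change over tested members was -0.19, 0.08, 0.31, -0.09 and -0.30 in these 5 comparisons, beside medians of all tested genes within 0.01 of 0 in each.

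**Figure D1:**
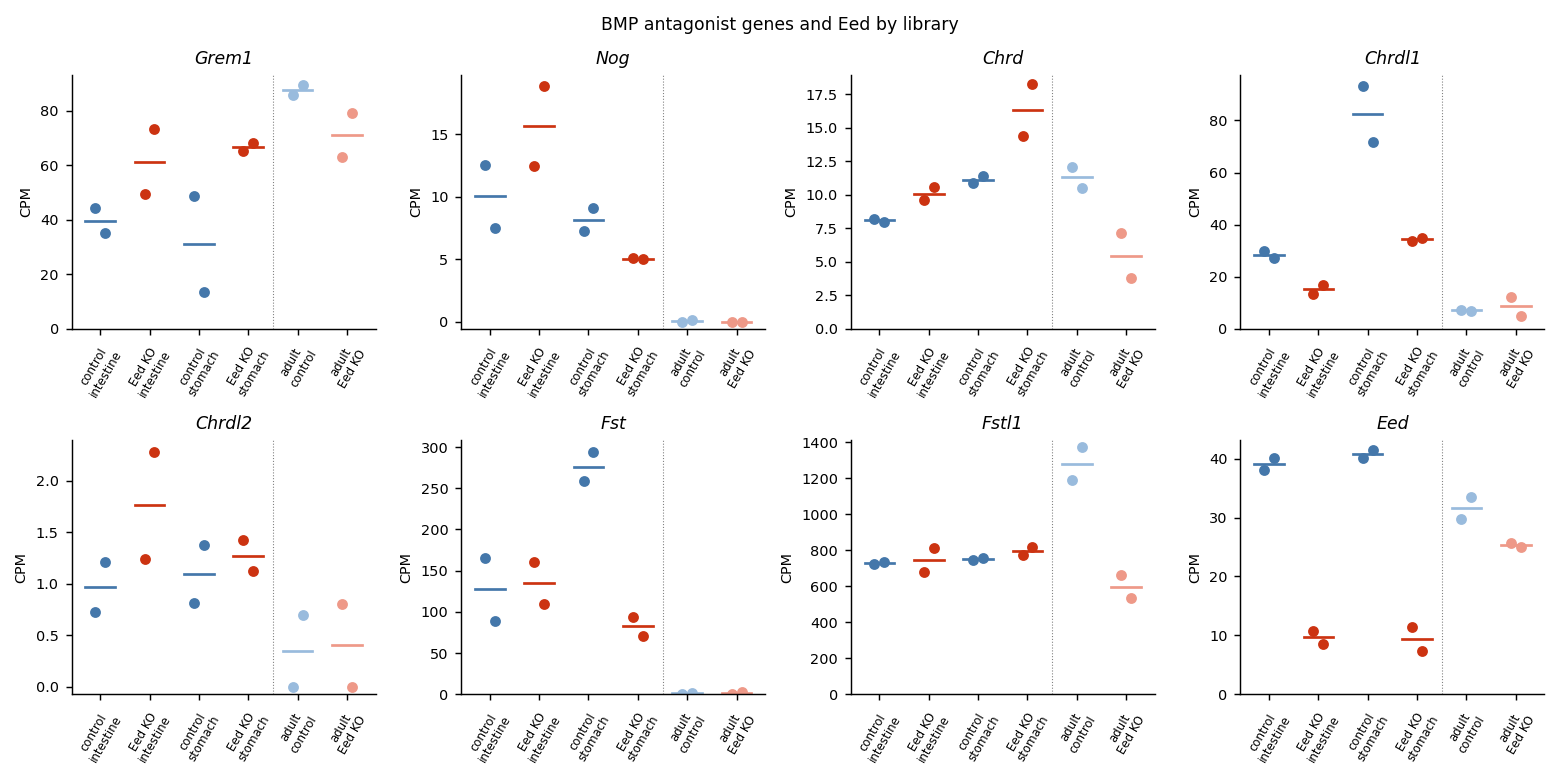
CPM (linear axis, TMM-scaled library sizes) of each antagonist and of Eed, with 1 point per library, a bar for the mean of 2 libraries, controls in blue, Eed KO in red and adult libraries right of the dotted line. Chrdl1 was highest in both control stomach libraries, Fst fell to 70.6 and 94.1 CPM in Eed KO stomach, and Nog and Fst were near 0 in the adult.

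Levels can be set against each other per transcript length, as TPM, the share of a library's transcripts scaled to a common total. In embryonic control intestine the order was Fstl1 at 445 ± 16.6 TPM, Fst at 162 ± 65.6 TPM, Grem1 at 28.7 ± 4.15 TPM, Nog at 17.7 ± 5.88 TPM, Chrdl1 at 12.6 ± 0.579 TPM, Chrd at 4.15 ± 0.00938 TPM and Chrdl2 at 1.69 ± 0.627 TPM (n = 2). Nog (21.8 and 13.53 TPM) and Chrdl1 (13.0 and 12.2 TPM) were neighbours in this order whose difference was no larger than the spread of Nog, and the other neighbours lay further apart than their spread. In adult control intestine the order changed to Fstl1 at 668 ± 53.6 TPM, Grem1 at 54.3 ± 0.466 TPM, Chrd at 4.97 ± 0.586 TPM, Chrdl1 at 2.72 ± 0.177 TPM, Fst at 1.01 ± 0.393 TPM, Chrdl2 at 0.513 ± 0.725 TPM and Nog at 0.105 ± 0.148 TPM. Fst and Chrdl2 overlapped there, as did Chrdl2 and Nog. Fst thus stood below Grem1, Chrd and Chrdl1 in the adult and above them in the embryo, but the 2 sets differ in library kit and in the Cre that marked the cells, so stage and preparation cannot be told apart and no test was made.

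Grem1 encodes gremlin, a cystine-knot protein that binds BMP2, BMP4 and BMP7 and is known as a product of muscularis and pericryptal stroma. It read 44.4 and 35.1 CPM in control intestine, 49.5 and 73.2 CPM in Eed KO intestine, 48.9 and 13.7 CPM in control stomach, and 65.2 and 68.3 CPM in Eed KO stomach. The 2 control stomach libraries stood far apart, and both lay below both Eed KO stomach libraries. The fitted log2 fold change after Eed loss was 1.09 ± 0.50 (SE) in stomach and 0.63 ± 0.49 (SE) in intestine, neither called (edgeR adjusted p = 0.25 and 0.72). One library decided this: without control stomach replicate 1 the stomach value was 2.28 and was called (edgeR adjusted p = 0.016), and without replicate 2 it was 0.45 (adjusted p = 0.46). In the adult, Grem1 read 86.0 and 89.5 CPM in control and 63.1 and 79.4 CPM in KO. Both KO libraries were lower, and the difference was not called (log2 fold change -0.30 ± 0.20 SE, edgeR adjusted p = 0.31).

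The RefSeq promoter table (GRCm38.p6) held 3 of the 7 members, Grem1, Chrd and Fstl1. The Fstl1 window, with 16 CpG dinucleotides, is not shown because it contained the GENCODE vM4 start. The 250 bases before the starts of Grem1 and Chrd are shown, and both are CpG-rich promoters, the kind at which Polycomb complexes are known to act. They lie at chr2:113758649-113758898 on the minus strand for Grem1 and chr16:20732877-20733126 on the plus strand for Chrd, and are written 5′ to 3′ in the direction of the gene. Capitals mark the GC box GGGCGG, the CCAAT box CCAAT and the TATA box TATAAA on either strand.
Grem1: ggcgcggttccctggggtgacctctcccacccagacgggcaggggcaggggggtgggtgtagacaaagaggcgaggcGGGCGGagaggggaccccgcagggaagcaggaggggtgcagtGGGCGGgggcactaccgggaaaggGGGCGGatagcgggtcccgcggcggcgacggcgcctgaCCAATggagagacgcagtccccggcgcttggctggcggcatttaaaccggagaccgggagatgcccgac
Chrd: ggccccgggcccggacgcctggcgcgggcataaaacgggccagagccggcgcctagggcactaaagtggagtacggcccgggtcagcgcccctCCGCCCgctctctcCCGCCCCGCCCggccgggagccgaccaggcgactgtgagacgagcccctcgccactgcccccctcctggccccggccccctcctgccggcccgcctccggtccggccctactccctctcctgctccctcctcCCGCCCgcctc
The Grem1 window held 24 CpG dinucleotides, 3 GC boxes and 1 CCAAT box, and the Chrd window 28 CpG dinucleotides and 4 GC boxes, 2 of which share letters. The median of 32817 promoter windows of the same length was 6 CpG dinucleotides, and the CpG counts of Grem1 and Chrd stood at the 88.0 and 92.4 percentiles of all windows. A GC box was present in 32.7% of all windows, a CCAAT box in 33.8% and a TATA box in 12.4%, and no TATA box letters were found in either window. The BMP-responsive SMAD motif GGCGCC, its own reverse complement, occurred once in each window and in 9.59% of all windows. A match of letters is a description and no evidence of binding.

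Nog encodes noggin, a dimeric antagonist that covers both receptor-binding faces of BMP2, BMP4 and BMP7. It read 12.6 and 7.54 CPM in control intestine and 7.25 and 9.10 CPM in control stomach, so the control organs overlapped. In Eed KO intestine it read 12.5 and 18.9 CPM and in Eed KO stomach 5.10 and 4.99 CPM. Nog was 3.11-fold higher in Eed KO intestine than in Eed KO stomach (log2 fold change 1.64 ± 0.29 SE, edgeR adjusted p = 0.019), and both intestinal libraries were above both gastric ones. Neither organ alone passed the test after Eed loss: the log2 fold change was 0.64 ± 0.28 (SE) in intestine (edgeR adjusted p = 0.38) and -0.70 ± 0.29 (SE) in stomach (adjusted p = 0.21). The call between KO organs was lost when any 1 of Eed KO intestine replicate 2, Eed KO stomach replicate 1 or Eed KO stomach replicate 2 was left out, with log2 fold changes of 1.31 to 1.65 and edgeR adjusted p of 0.057 to 0.11.

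Of 13386 genes tested at a mean of 1 CPM or more, the one whose log2(CPM + 1) followed Nog most closely over the 8 embryonic libraries was Tagln, which encodes the smooth muscle protein transgelin (Pearson r = 0.996), followed by Ckb at 0.973, a cytosolic creatine kinase, and Sh3bgr at 0.972. These correlations describe 8 libraries that share their groups and carry no test. Tagln read 402 and 282 CPM in control intestine, 401 and 544 CPM in Eed KO intestine, 265 and 291 CPM in control stomach and 205 CPM in both Eed KO stomach libraries. The 6 smooth muscle markers together summed to 3243 to 5520 CPM in Eed KO intestine and 1820 to 2059 CPM in Eed KO stomach, and 4 of the 6 were called higher in Eed KO intestine. In controls the sums were 2759 to 4058 CPM in intestine and 2853 to 2970 CPM in stomach. Their part in the Nog difference was not tested.

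**Figure D2:**
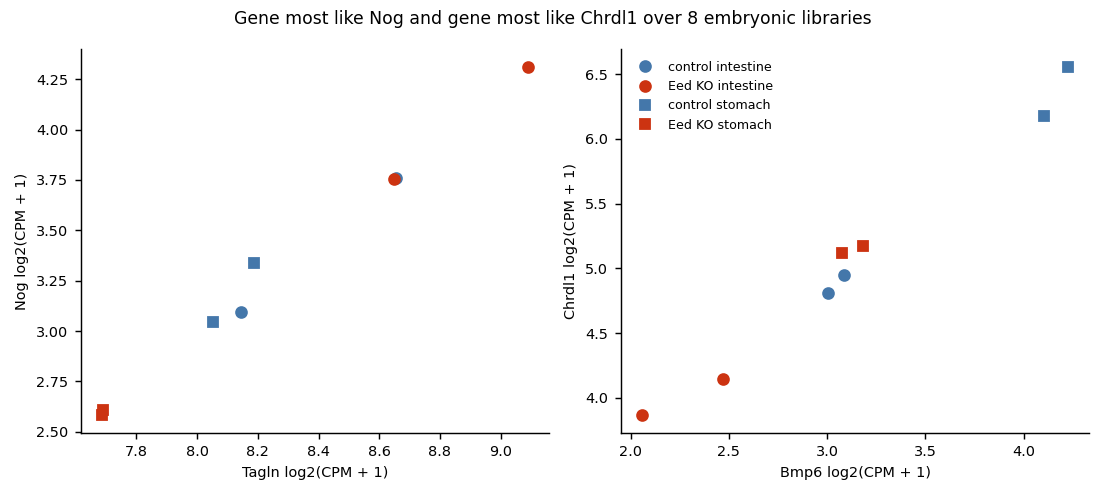
Log2(CPM + 1) of Nog against Tagln (left) and of Chrdl1 against Bmp6 (right), 1 point for each of 8 embryonic libraries, circles for intestine, squares for stomach, blue for control and red for Eed KO. Nog and Tagln were lowest together in Eed KO stomach and highest in the same Eed KO intestine library, and Chrdl1 and Bmp6 were highest together in control stomach.

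Chrd encodes chordin, which traps BMPs until the tolloid proteases cut it. It read 8.20 and 7.98 CPM in control intestine, 9.58 and 10.6 CPM in Eed KO intestine, 10.8 and 11.4 CPM in control stomach and 14.4 and 18.2 CPM in Eed KO stomach. In each of the 4 pairwise embryonic comparisons the libraries of the groups did not overlap, as was the case for 38.3% to 55% of all tested genes. The log2 fold change was 0.55 ± 0.15 (SE) after Eed loss in stomach (edgeR adjusted p = 0.070) and 0.31 ± 0.15 (SE) in intestine (adjusted p = 0.44), neither called. Between Eed KO organs it was lower in intestine by a log2 fold change of -0.69 ± 0.15 (SE; edgeR adjusted p = 0.039), below the size required for a call. Exons of Chrd overlap those of Thpo on the opposite strand. The embryonic library kit keeps strand but the strand setting of the counting is not given in the sources used here, and the adult libraries were unstranded, so in adult libraries reads of the 2 genes cannot be told apart where they overlap.

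Chrdl1, chordin-like 1 or ventroptin, binds BMP4 and is the member with the clearest differences. It read 93.2 and 71.5 CPM in control stomach, 29.9 and 27.1 CPM in control intestine, 33.7 and 35.0 CPM in Eed KO stomach and 13.6 and 16.7 CPM in Eed KO intestine. None of these 4 groups overlapped another, and the order was control stomach, Eed KO stomach, control intestine, Eed KO intestine. In controls it was 2.89-fold lower in intestine than in stomach (log2 fold change -1.53 ± 0.16 SE, edgeR adjusted p = 0.0016), and in Eed KO 2.26-fold lower (log2 fold change -1.18 ± 0.16 SE, adjusted p = 0.0069). Relative to the median gene, it was 2.40-fold lower after Eed loss in stomach (log2 fold change -1.26 ± 0.16 SE, edgeR adjusted p = 0.0044). In intestine the log2 fold change was -0.91 ± 0.16 (SE), which passed edgeR's adjusted p (0.029) but not the size. Without Eed KO intestine replicate 2 it was -1.07 and called (edgeR adjusted p = 0.045), and without any of the other 3 intestinal libraries it was -0.77 to -0.98 with no call.

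The stomach value and both organ differences of Chrdl1 kept their call when each library in turn was left out, and none of the 3 was called under spike-in scaling. Under spike-in scaling the Chrdl1 log2 fold change was 1.16 in Eed KO stomach and 1.00 in Eed KO intestine with the shift of the median gene kept in, and -1.23 and -0.85 relative to that median. The Chrdl1 gene lies on the X chromosome, and the Eed KO libraries that lack Xist (13.6 and 33.7 CPM of Chrdl1) were close to those that hold it (16.7 and 35.0 CPM). The gene most like Chrdl1 over the 8 libraries was Bmp6, a BMP ligand (Pearson r = 0.993), followed by the copper transporter gene Atp7a (0.989), also X-linked, and Brinp1 (0.983). The 4 mesothelial markers summed to 484 to 505 CPM in control stomach, against 292 to 446 CPM in control intestine, 305 to 403 CPM in Eed KO stomach and 310 to 311 CPM in Eed KO intestine. None of the 4 was called after Eed loss in stomach, where Upk3b and Lrrn4 were lower in Eed KO. Wt1 was higher there, at 77.3 and 76.2 CPM in control and 112 and 140 CPM in Eed KO, as was Msln, at or below 0.603 CPM. The part of mesothelial cells in the result was not tested.

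Chrdl2, the second chordin-like gene, was low, with 26 to 80 counts in each embryonic library. It read 0.730 and 1.21 CPM in control intestine, 1.24 and 2.28 CPM in Eed KO intestine, 0.812 and 1.38 CPM in control stomach, and 1.42 and 1.12 CPM in Eed KO stomach. No comparison called it, and its groups did not overlap only between control and Eed KO intestine, where the nearest libraries were almost level.

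Fst encodes follistatin, the main extracellular inhibitor of activins, which also binds several BMPs. It read 259 and 294 CPM in control stomach and 94.1 and 70.6 CPM in Eed KO stomach, with a wide gap between the groups. In intestine it read 166 and 89.2 CPM in control and 160 and 109 CPM in Eed KO, and these groups overlapped. Relative to the median gene, Fst was 3.36-fold lower after Eed loss in stomach (log2 fold change -1.75 ± 0.31 SE, edgeR adjusted p = 0.017), whereas the fitted log2 fold change in intestine was 0.08 ± 0.30 (SE; adjusted p = 0.96). Relative to the spike-in median the stomach value was -1.84, but 0.55 where that shift was kept in. The call was lost with 1 factor of unwanted variation estimated from the spike-ins (-1.21, edgeR adjusted p = 0.21) and without control stomach replicate 1, control stomach replicate 2 or Eed KO stomach replicate 2 (-1.56 to -1.84, adjusted p of 0.070 to 0.11).

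Between organs, Fst was lower in both control intestine libraries than in both control stomach libraries (log2 fold change -1.12 ± 0.31 SE) and higher in both Eed KO intestine libraries than in both Eed KO stomach libraries (0.71 ± 0.30 SE). Neither difference was called (edgeR adjusted p = 0.082 and 0.25). The control difference was called by DESeq2 and with no filter on low counts. It was also called with replicate number as a block (edgeR adjusted p = 0.013) and with same-numbered organs of a genotype as a block (edgeR adjusted p = 0.0076). The labels do not state that same-numbered libraries belong together. It was not called with RLE scaling (edgeR adjusted p = 0.084), 1 factor of unwanted variation (0.073), only the compared groups (0.061) or spike-in scaling. The log2 fold change was -1.62 without control intestine replicate 1 and -0.74 without control intestine replicate 2. Without control stomach replicate 1 or 2 it was -1.21 or -1.02. The difference of the 2 organ effects, control minus Eed KO, was tested as an interaction with an adjusted p below 0.2, a rule that called 0.462% of genes and none of the 7 antagonists. For Fst it was -1.83 ± 0.43 (SE; unadjusted p = 0.0032, edgeR adjusted p = 0.32) and for Nog -1.34 ± 0.41 (SE; unadjusted p = 0.012, adjusted p = 0.54). This outcome depended on the settings, and neither gene was called with 1 factor of unwanted variation estimated from the spike-ins. DESeq2 called both, with adjusted p of 0.0016 for Fst and 0.14 for Nog. So did edgeR with no filter on low counts (adjusted p = 0.0030 and 0.085) and with same-numbered organs of a genotype as a block (0.024 and 0.14), whereas the replicate number as a block called Fst (0.058) but not Nog (0.36). The genes most like Fst were Trib1 (Pearson r = 0.946), Gipc1 (0.940) and Ubac1 (0.939), whose log2 values had SDs of 0.112 to 0.192 over the libraries, beside 0.739 for Fst.

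Fstl1, follistatin-like 1, is a secreted glycoprotein reported to bind BMP4 and the receptor protein DIP2A. It was the most abundant member and the steadiest in the embryo, at 722 and 738 CPM in control intestine, 680 and 814 CPM in Eed KO intestine, 746 and 756 CPM in control stomach, and 774 and 817 CPM in Eed KO stomach. Its log2 fold changes in the 4 pairwise embryonic comparisons ran from -0.09 to 0.08, with SE of 0.11. In the adult it read 1191 and 1373 CPM in control and 662 and 535 CPM in KO, and it was 2.14-fold lower in KO (log2 fold change -1.10 ± 0.21 SE, edgeR adjusted p = 0.0098). Without adult control replicate 2 or adult KO replicate 2 the log2 fold change was -0.99 or -0.96, under the size required.

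**Figure D3:**
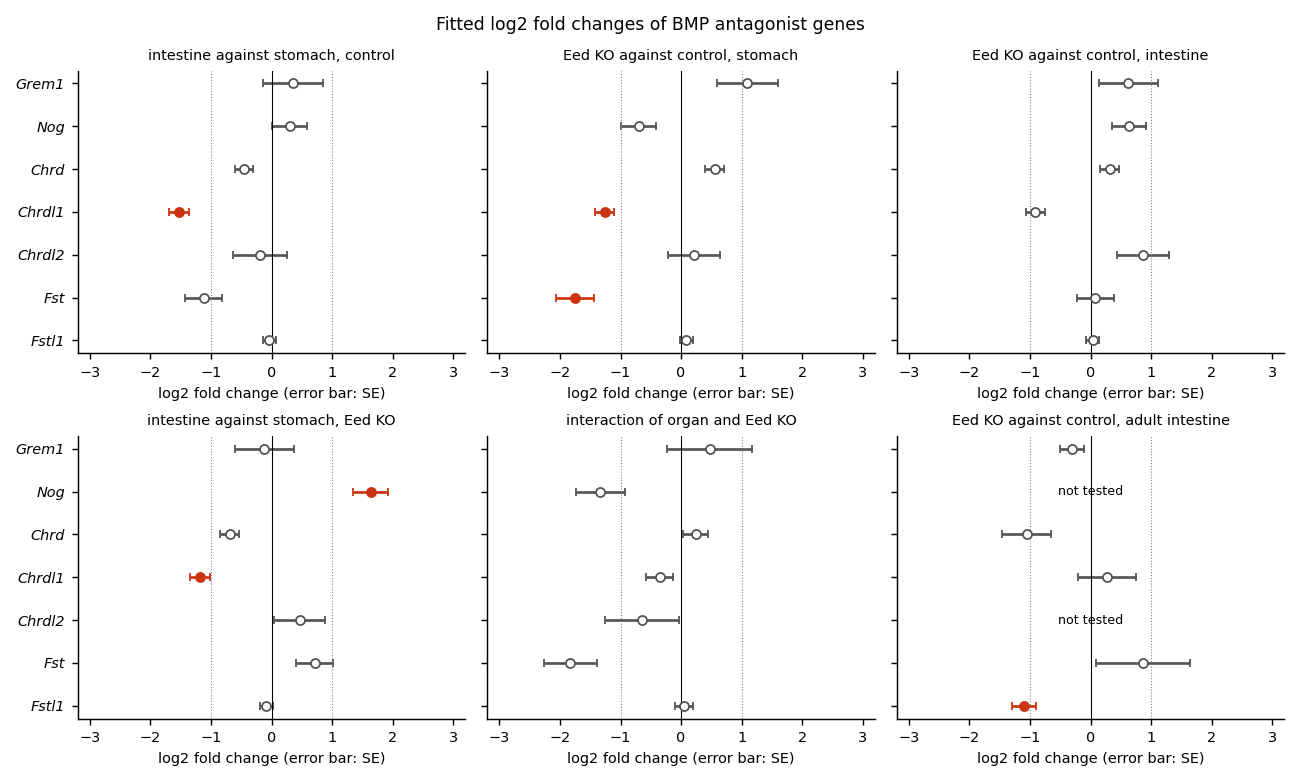
Fitted log2 fold changes (point) with their SE (bar) of the 7 antagonists in 6 comparisons; filled red points were called, open points were not, and dotted lines mark a log2 fold change of 1 in size. Chrdl1 was called in 3 panels and lay at -0.91 in the fourth embryonic pairwise panel.

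The other adult members gave no call. Chrd read 12.1 and 10.5 CPM in control and 7.13 and 3.79 CPM in KO, without overlap (log2 fold change -1.06 ± 0.40 SE, edgeR adjusted p = 0.11), and was called without KO replicate 1 (-1.60, adjusted p = 0.034). Chrdl1 read 7.39 and 6.94 CPM in control and 12.4 and 4.95 CPM in KO, and Fst 0.659 and 1.19 CPM in control and 0.803 and 2.55 CPM in KO, both overlapping. Nog held 2 counts in 1 control library and 0 in the other 3, and Chrdl2 held 10 counts in 1 control library, 8 in 1 KO library and 0 in the other 2, so neither was tested or given a fold change. The adult libraries differed widely in cell type markers. The 5 measured leukocyte markers summed to 527 to 656 CPM in control and 11477 to 13109 CPM in KO, while 7 mesenchymal markers summed to 11222 to 11777 CPM in control and 3388 to 4894 CPM in KO, and 4 pericryptal and perivascular markers to 11482 to 13381 CPM and 3187 to 4448 CPM. Their part in the lower Fstl1 was not tested.

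Around the antagonists, 68 other genes of the pathway were listed by role, of which 59 were tested in the embryo and 50 in the adult. Between control organs 3 were called higher in intestine (beside 1.68% of all tested genes) and 7 lower (3.39%). Among other antagonists and modulators, 2 of 17 tested were higher and 2 lower: Bmp3, which encodes a BMP that opposes the others, read 39.1 and 43.7 CPM in control intestine and 2.99 and 6.09 CPM in control stomach (log2 fold change 3.18, edgeR adjusted p = 0.0066), and Htra1, a secreted protease, read 12.1 CPM in both intestine libraries and 5.19 and 5.56 CPM in stomach. Of 12 receptors and co-receptors tested, 1 was higher and 1 lower. The type I receptor gene Bmpr1b read 4.33 and 4.91 CPM in control intestine and 85.3 and 71.2 CPM in control stomach (log2 fold change -4.08, edgeR adjusted p = 5.04e-05), while the endothelial co-receptor gene Eng read 36.4 and 48.9 CPM in intestine and 12.7 and 16.7 CPM in stomach. Of 5 endothelial markers, 3 were also called higher in control intestine, among them Cdh5 at 1.43 and 1.82 CPM against 0.493 and 0.433 CPM, while Kdr read 6.60 and 7.94 CPM against 11.8 and 9.76 CPM, and their part in the Eng difference was not tested. Of 8 BMP ligand genes tested 1 was lower, Bmp6, at 7.50 and 7.03 CPM in intestine and 17.7 and 16.2 CPM in stomach. The 2 tested chordin proteases and the 4 SMAD mediators gave no call.

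After Eed loss in stomach, 6 of the 59 pathway genes were higher (beside 4.84% of all tested genes) and 2 lower (0.808%). Inhba, which encodes the activin A subunit that follistatin binds, read 1.57 and 1.61 CPM in control stomach and 6.57 and 6.64 CPM in Eed KO stomach (log2 fold change 2.06, edgeR adjusted p = 0.0042), while Fst itself fell. Of 11 target and inhibitor genes tested, 2 were called higher and none lower, and both had low levels. Msx1 read 1.94 and 1.53 CPM in control stomach and 3.51 and 4.00 CPM in Eed KO stomach. Msx2 read 0.232 and 0.127 CPM in control and 1.10 and 1.18 CPM in Eed KO. Of 17 modulators 3 were higher, among them Htra1 and Fstl5, the latter at 0.493 and 0.510 CPM in control and 1.13 and 1.67 CPM in Eed KO. Bmp6 fell to 7.43 and 8.09 CPM (log2 fold change -1.13, edgeR adjusted p = 0.012), and the co-receptor gene Rgmb read 143 and 128 CPM in control and 62.5 and 62.8 CPM in KO (-1.11, adjusted p = 9.3e-04). In intestine 3 of 59 were higher (beside 2.38% of all tested genes) and none lower (0.228%). Among the higher ones were Htra1, at 34.3 and 31.8 CPM in Eed KO (log2 fold change 1.44, edgeR adjusted p = 0.0044), and Msx1, at 1.61 and 1.48 CPM in Eed KO. The median log2 fold change of the 11 target and inhibitor genes was 0.28 in stomach and 0.27 in intestine. The 5 endothelial markers summed to 11.4 to 14.9 CPM in the controls of both organs and 21.6 to 45.4 CPM in Eed KO, and 4 of the 5 were called higher in stomach and 3 in intestine. The part of endothelial cells in these values was not tested.

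Between the Eed KO organs, 2 pathway genes were higher in intestine (beside 1.46% of all tested genes) and 8 lower (2.94%). Fstl4 read 4.88 and 11.5 CPM in intestine and 0.537 and 1.34 CPM in stomach, and the ligand gene Bmp5 80.2 and 77.4 CPM against 31.5 and 27.3 CPM. Bmpr1b stayed lower in intestine, at 5.67 and 7.08 CPM against 46.8 and 45.1 CPM (log2 fold change -2.85, edgeR adjusted p = 3.9e-04), and it was the 1 pathway gene called by the interaction. In the adult 1 of 50 pathway genes was higher (beside 12.3% of all tested genes) and 12 lower (7.23%). The higher one was Id2, a target of BMP SMADs that is also expressed in leukocytes, at 92.9 and 99.3 CPM in control and 562 and 884 CPM in KO. Of 6 BMP ligand genes tested 3 were lower, Bmp4, Bmp5 and Bmp7, and the list had a median log2 fold change of -1.56, beside 0.0013 for all genes. Bmp4 read 636 and 660 CPM in control and 214 and 115 CPM in KO (log2 fold change -1.98, edgeR adjusted p = 0.0048), moving in the same direction as Fstl1. These adult values stand beside the marker sums given above.

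All 7 antagonists had an accessible region within 1000 bp of their transcription start in all 4 conditions, beside 87.8% of tested genes in control intestine, 88.9% in Eed KO intestine, 88.3% in control stomach and 88.9% in Eed KO stomach. The fold enrichment is that of the deposited peak, which averages over its width. Chrdl2, the least expressed member in the embryo, had the strongest promoter region of the 7 in every condition but Eed KO stomach, at 8.14-fold in control intestine, 6.02-fold in Eed KO intestine, 6.73-fold in control stomach and 5.54-fold in Eed KO stomach, and in the controls they did not cover the start itself. Nog, at 2.97-fold to 3.34-fold, and Fst, at 3.16-fold to 3.47-fold, had the weakest promoter regions, and Fst lay under a region of 4544 to 4584 bp that covered its start in each list.

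Chrdl1 had promoter regions of 5.77-fold in control intestine, 5.59-fold in Eed KO intestine, 5.87-fold in control stomach and 6.79-fold in Eed KO stomach, so its promoter enrichment did not follow the fall of its RNA. Within the gene and 50000 bp to either side, a weak intronic region centred 12302 bp after its start was listed in control intestine (3.33-fold, -log10 q 3.48) and control stomach (2.97-fold, -log10 q 2.34) and in neither Eed KO list. The methods describe a selection of autosomal reads, yet the lists held 1763 to 2016 peaks on the X chromosome. For Nog, a region centred at -5790 bp was listed at 3.32-fold in control intestine, 2.35-fold in Eed KO intestine and 2.58-fold in control stomach, and was not listed in Eed KO stomach, where Nog RNA was lowest. The region centred at -16621 bp of Nog was 4.36-fold and 5.20-fold in control intestine and stomach and 3.61-fold and 3.24-fold in the Eed KO organs.

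Both regions were chosen by their listing, so a match with the RNA of the gene is no result. The Chrdl1 region was in both control lists and neither Eed KO list, and the Nog region was missing only in Eed KO stomach. Across organs the Chrdl1 listing did not follow its RNA, which was higher in Eed KO stomach than in control intestine. A Nog region centred at 27886 bp had the same pattern of listing as the one shown, with a lower -log10 q in each list that held it. Its fold enrichment was lower in control intestine (2.99-fold) and higher in Eed KO intestine (2.62-fold) and control stomach (3.02-fold). Other regions differed in other ways. At Nog the one centred at -37588 bp was missing only in control intestine. At Chrdl1 the one centred at 49394 bp was missing only in Eed KO stomach, and the one at -10780 bp was listed only in the stomach lists. Each is the 300 bases around the middle of the overlap of the 2 control peaks, plus strand of GRCm38.p6, at chrX:143381804-143382103 in an intron of Chrdl1 and chr11:89307720-89308019 upstream of Nog, within an intron of the gene model Gm2018. Capitals mark the forkhead motif TAAACA, the GATA motif AGATAA and the SMAD motif GGCGCC on either strand.
Chrdl1 region: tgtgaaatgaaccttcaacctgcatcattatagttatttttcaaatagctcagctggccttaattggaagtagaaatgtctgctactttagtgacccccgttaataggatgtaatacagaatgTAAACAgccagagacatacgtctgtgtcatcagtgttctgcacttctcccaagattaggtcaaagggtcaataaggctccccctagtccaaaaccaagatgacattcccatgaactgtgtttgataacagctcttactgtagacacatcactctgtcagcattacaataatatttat
Nog region: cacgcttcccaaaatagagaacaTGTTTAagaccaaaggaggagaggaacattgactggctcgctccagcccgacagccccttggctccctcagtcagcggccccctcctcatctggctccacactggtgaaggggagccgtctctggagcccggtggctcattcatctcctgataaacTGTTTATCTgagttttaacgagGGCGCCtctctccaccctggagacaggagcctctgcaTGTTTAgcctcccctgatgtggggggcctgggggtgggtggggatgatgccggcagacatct
The Chrdl1 region held 1 forkhead motif. The 300 bases shown for Nog held 3 forkhead motifs, 1 GATA motif that shares letters with one of them, and 1 SMAD motif. They begin before the listed region, which starts at chr11:89307752, and the leftmost forkhead motif lies outside it. Among the central 300 bases of all 103808 control intestine peaks, 21.9% held the forkhead motif, 12.6% the GATA motif and 6.28% the SMAD motif.

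**Figure D4:**
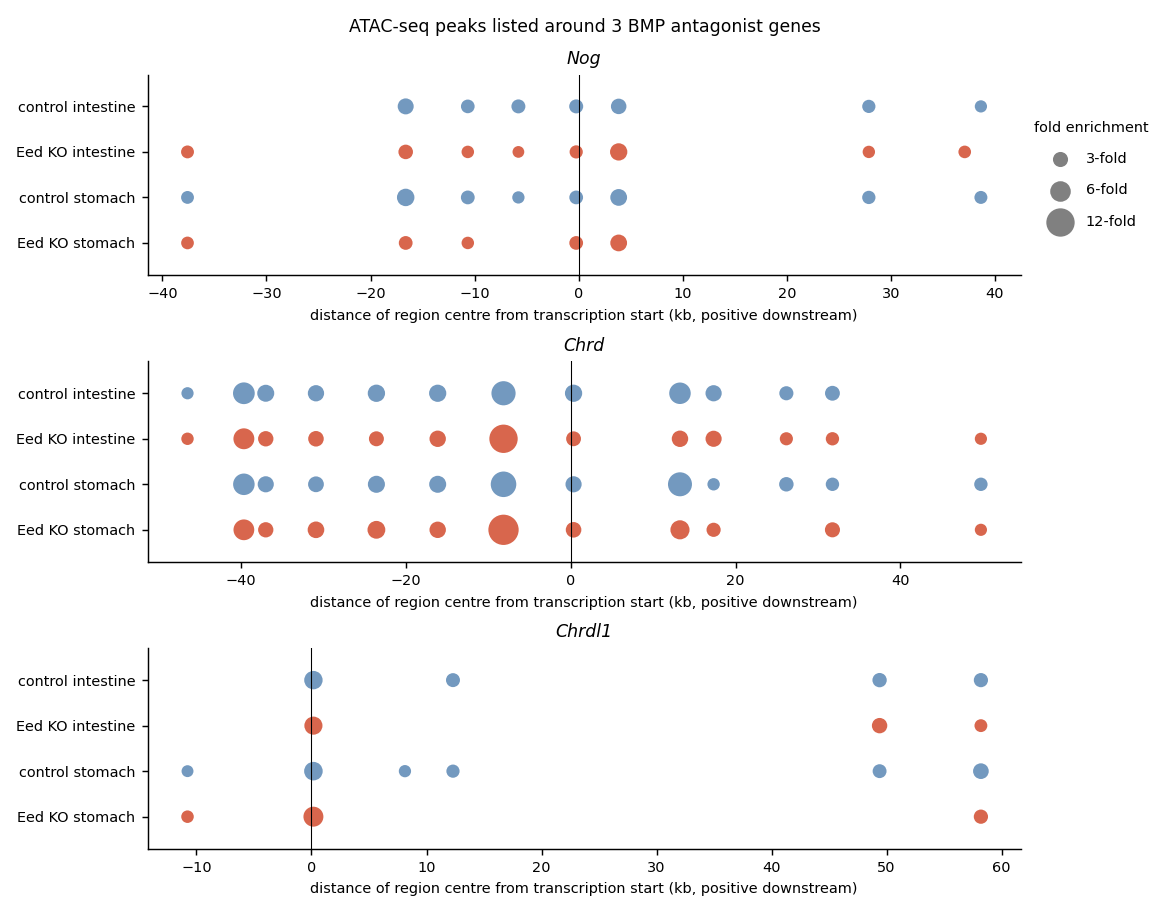
Accessible regions listed within 50000 bp of Nog, Chrd and Chrdl1, by distance of the region centre from the transcription start (kb, positive downstream) and condition, with the area of each point proportional to the fold enrichment. Points are absent where a list held no region, as at -5790 bp of Nog in Eed KO stomach and 12302 bp downstream of the Chrdl1 start in both Eed KO lists.

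Chrd, whose RNA was higher in Eed KO in each organ without a call, had promoter regions of 5.07-fold in control intestine, 3.75-fold in Eed KO intestine, 4.45-fold in control stomach and 4.14-fold in Eed KO stomach. Its neighbourhood held 13 regions, of which 10 were in all 4 lists. The strongest, centred at -8164 bp, was 9.96-fold and 11.1-fold in control intestine and stomach and 13.7-fold and 15.6-fold in the Eed KO organs, while the one centred 13252 bp downstream was 7.88-fold and 9.81-fold in controls and 4.60-fold and 6.23-fold in Eed KO. Which gene these regions act on was not tested. Grem1 had promoter regions of 3.96-fold to 4.28-fold with 2 of its 5 neighbourhood regions in all 4 lists, and Fstl1 had promoter regions of 5.16-fold to 5.84-fold with 12 of 24. With 1 pooled list for each condition, none of these enrichment differences has a replicate check.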

How the data were processed

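The authors trimmed reads with Trimmomatic 0.32, aligned RNA-seq reads with STAR 2.5.1b and counted them per gene of GENCODE vM4 with featureCounts, and deposited raw read counts for each library. ATAC-seq reads were aligned with BWA 0.7.8 to mm10, and the authors called broad peaks with MACS2 2.1.2 on pooled replicates. The deposited peak lists give a fold enrichment (a ratio of signal to background) and −log10 values of p and q for each peak. The stated q cut-off corresponds to a −log10 q of 2, but 13.5% to 20.0% of listed peaks lie under it.

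Counts were tested with edgeR 4.0.16 (TMM scaling, filterByExpr, glmQLFit and glmQLFTest; R 4.3.3), with 4 group means over 8 embryonic libraries and 2 over 4 adult libraries. This left 16218 and 15039 of 43280 genes, with Benjamini-Hochberg adjustment over all of them. CPM use TMM-scaled library sizes and TPM the gene lengths of the adult table. SE is the log2 fold change divided by the square root of F. Calls required an adjusted p under 0.05 (0.2 for the interaction) and a log2 fold change beyond 1 in either direction. Comparisons of organs and genotypes share libraries. The study calls its 2 replicates biological, the labels do not say which animals or pools they came from, and p-values measure the spread between these samples.

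On simulated counts, 94% to 100% of 4-fold and 35% to 46% of 2-fold changes were recovered in the embryonic comparisons, and 66% and 8% in the adult one. The changes were placed in genes above a mean of 1 CPM. A 2-fold change lies at the size required for a call, so that rule alone misses many. A promoter was 1000 bp to either side of the GENCODE vM4 start, and any overlap of 1 bp or more counted. Pathway genes were named if called, at a mean of 1 CPM or more in the higher group and not overlapping, with at most 5 per direction by size, and like genes were the 3 with the highest correlation. The members and all lists were chosen with earlier results of these data known. Alternatives were DESeq2 1.42.0, RLE scaling, no filter on low counts, spike-in scaling, 1 RUVg factor, replicate blocks, fits of the compared groups only, and leaving out each library. Counting intervals are not given, and the floor of 3 counts covers counting error only.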

Additional observations from a re-analysis of the deposited data

Results flagged for a closer look

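Grem1 moved in opposite directions after Eed loss in the 2 intestinal sets: its log2 fold change was 0.625 in embryonic intestine and -0.30 in adult intestine, with every KO library on the same side of its controls in each set. Chrd did likewise, at 0.315 in embryonic and -1.06 in adult intestine. Neither difference between stages was tested, because the sets differ in kit, Cre and counting run, and none of these 4 values was called.

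Fst was lower in control intestine than in control stomach (log2 fold change -1.12) and higher in Eed KO intestine than in Eed KO stomach (0.71), with no overlap of libraries in either. The interaction that tests this difference gave an edgeR adjusted p of 0.32 and was not called, nor was it with 1 RUVg factor. It was called with same-numbered organs of a genotype as a block (edgeR adjusted p = 0.024), with a replicate block (0.058), with no filter on low counts and by DESeq2. The labels do not state that same-numbered libraries belong together.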

How the results depend on the processing

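Of the log2 fold changes of members recomputed under alternatives, 409 kept their direction and side of the threshold, 28 gained a call, 13 lost one and 27 reversed, spike-in scaling being judged with the shift of the median gene kept in, and the cause was not tested. All 16 recomputed counts of members with a promoter peak were unchanged. There were 2 libraries a group, and the embryonic biological coefficient of variation was 15.8% (adult 29.1%). Simulated 2-fold changes were often missed, in part because they lie at the size required for a call.

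In control organs, 2 members were lower under DESeq2, both replicate blocks and no filter, and 0 under spike-in scaling, which called 155 genes in all. In Eed KO stomach, 1 member was higher with no filter and 5 under spike-in scaling, and 1 was lower with 1 RUVg factor and 0 under spike-in scaling, with 418 and 15438 genes called in all. In Eed KO intestine spike-in scaling called 6 members higher and 13688 genes, and all genes called were 222 with RUVg, 661 by DESeq2, 800 with no filter and 244 with only the compared groups. Between Eed KO organs 0 members were called in either direction under spike-in scaling (115 genes), and all genes called were 1131 with the block of same-numbered organs and 397 with only the compared groups. For the interaction, 2 members were lower by DESeq2, the block of same-numbered organs and no filter and 1 with the replicate block, with 205, 350, 237 and 187 genes called, 162 with RUVg and 20 under spike-in scaling. In the adult 2 members were lower with no filter and 0 under spike-in scaling.

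Leaving out 1 library gave 0 to 1 members higher, 1 to 2 lower and 370 to 500 genes in control organs; 0 to 1, 1 to 2 and 344 to 650 in Eed KO stomach; 0 to 1 lower and 74 to 363 genes in Eed KO intestine; 0 to 1 higher and 304 to 528 genes between Eed KO organs; 27 to 97 genes in the interaction; and 0 to 2 members lower in the adult.

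Reversed values with 1 RUVg factor were -0.29 for Chrdl2 and -0.19 for Fstl1 in stomach, -0.18 for Fstl1 in intestine and -0.0081 for its interaction. Under spike-in scaling with the shift kept in, they were 0.057 for Chrdl2 and 0.25 for Fstl1 in control organs, 1.67 for Nog, 1.16 for Chrdl1 and 0.55 for Fst in Eed KO stomach, 1.00 for Chrdl1 in Eed KO intestine, 0.16 for its interaction and -0.073 in the adult. The calls of Chrdl1 between organs, Nog between Eed KO organs and adult Fstl1 (edgeR adjusted p = 0.058) were lost there. Leaving out 1 library gave ranges across 0 in control organs for Grem1 (-0.29 to 1.54), Nog (-0.11 to 0.62) and Chrdl2 (-0.58 to 0.25), in Eed KO stomach for Chrdl2 (-0.12 to 0.65), in Eed KO intestine for Fst (-0.30 to 0.59) and Fstl1 (-0.10 to 0.16), between Eed KO organs for Grem1 (-0.43 to 0.14), Chrdl2 (-0.034 to 0.84) and Fstl1 (-0.22 to 0.036), in the interaction for Grem1 (-0.18 to 1.66) and Fstl1 (-0.075 to 0.19), and in the adult for Chrdl1 (-0.56 to 0.79) and Fst (-0.21 to 1.43).

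Replicate numbers are not stated to pair samples, and the main tests used no pairing. The methods describe separating stomach and intestine of each animal, and the Eed KO libraries named replicate 1 held 3 and 2 counts of Xist in intestine and stomach. Whether same-numbered organs came from the same embryos is not given. Deviations of same-numbered libraries correlated at 0.265 between control organs, 0.628 between Eed KO organs and -0.060 in the adult. The fit of only the compared groups was not run for the interaction, which uses all 4 groups.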
